A study of Caenorhabditis elegans with 2 samples.

Results

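The mitochondrial unfolded protein response genes are described here in whole L4 larvae of Caenorhabditis elegans, in 1 library from a flp-6 mutant strain and 1 library from the wild type strain N2. The mutant library came from strain VC2324, whose allele is not given in the labels, and both strains were kept at 25 °C. The gene flp-6 encodes FMRFamide-like neuropeptides, and no transgene, reporter or drug is named in the labels. Each group is 1 library, so that no value has an error between cultures or animals and no test was made. The response genes were a list of 10 symbols out of 46233 genes in the deposited table. They were chosen by name, with earlier results of these data known. Of the 10, 9 were found by their symbol in the table. The other, lonp-1, stands in the table under its older name C34B2.6 and was found by its gene identifier, WBGene00016391. All 10 passed the filter on low values, a mean over both libraries of at least 1 FPKM, which left 13436 genes in all. FPKM count the sequenced fragments of a gene per length of transcript and per size of library.

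When unfolded proteins gather in mitochondria, worms switch on nuclear genes for mitochondrial chaperones and proteases, and this programme is called the mitochondrial unfolded protein response. Its central transcription factor, ATFS-1, is taken up by healthy mitochondria and degraded there, and it goes to the nucleus when import fails. The regulators DVE-1 and UBL-5 act beside it in the nucleus, the protease CLPP-1 and the peptide transporter HAF-1 send a signal out of the mitochondrion, and the chaperone genes hsp-6 and hsp-60 are the usual reporters of the response. Nerve cells can set the response in the intestine through secreted signals. ATFS-1 and DVE-1 are controlled largely by where the protein goes, which transcript levels do not show.

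The 10 genes lie on 6 chromosomes, and all are annotated as protein-coding. In WBcel235, hsp-6 (WBGene00002010) lies on the reverse strand of chromosome V from 4824124 to 4826760, with 4 exons, and atfs-1 (WBGene00013878) on the forward strand of the same chromosome from 14193663 to 14197700, with 8 exons in its longest transcript. On chromosome I, ubl-5 (WBGene00006726) lies on the reverse strand from 5607826 to 5608841, lonp-1 on the reverse strand from 10676922 to 10682374 with 13 exons, and spg-7 (WBGene00004978) on the forward strand from 3467132 to 3478517. On chromosome III, hsp-60 (WBGene00002025) and ymel-1 (WBGene00010842) lie on the forward strand, the second of them from 10416139 to 10421757. The remaining genes are dve-1 (WBGene00022861) on the reverse strand of chromosome X from 427035 to 433812, clpp-1 (WBGene00014172) on the reverse strand of chromosome II, and haf-1 (WBGene00001811) on the forward strand of chromosome IV from 17376427 to 17379310.

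The library labelled flp-6 mutant held little of the targeted transcript, at 4.398 FPKM against 58.0 FPKM in the N2 library. The libraries also differed in scale, with FPKM sums of 989473 in the mutant library and 1414572 in N2, and the depth of each is unknown. Across the 12458 coding genes listed above 0.0001 FPKM in each library, the log2 difference went with transcript length, with a Spearman's rho across genes of 0.379. Genes are not independent replicates, and the values share the same pair of libraries. Of 38 marker genes of 8 tissues or stages, 33 were measured and 0 were at 0 in either library. The summed level of 5 body wall muscle markers was 2343 FPKM in the mutant and 1682 FPKM in the N2 library, that of 5 intestinal markers 1071 and 793 FPKM, and that of 5 germ line markers 1075 and 1050 FPKM. For 5 sperm markers the sums were 258 FPKM in the mutant and 124 FPKM in the N2 library, and for 4 markers of adult yolk and cuticle they were 8506 and 12966 FPKM. Sums for epidermis, neurons and pharynx were 0.820, 0.837 and 0.826 of the N2 sums, although 3 of 4 pharynx markers were higher in the mutant. By any amount, 4 of 5 muscle, 4 of 5 intestinal and 2 of 5 germ line markers were higher in the mutant. So were 3 of 3 measured sperm markers, whereas 4 of 4 yolk and cuticle markers were lower. Of 5 epidermal and 5 sperm markers, 3 each were measured. With the libraries set to the same FPKM sum, 4 of 4 measured neuron markers were higher, against 0 as deposited. On that scale 1 epidermal marker was higher and 2 were lower, and yolk and cuticle markers split 2 and 2. Set against genes of like length, 0 of 5 muscle markers were past 2-fold, against 3 as deposited, and 5 of 5 lay above 0. The part of tissue make-up or of developmental stage in the differences below was not tested. In whole larvae, fewer cells of a type and less RNA per cell cannot be told apart.

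As deposited, the chaperone genes and the longer protease genes were higher in the mutant, the regulators atfs-1 and dve-1 were nearly level, and ubl-5 and clpp-1 were lower. Differences are given as log2((mutant FPKM + 1)/(N2 FPKM + 1)), where 1 is a 2-fold difference and a positive value means higher in the mutant library. They ranged from -1.14 for ubl-5 to 0.72 for hsp-6, with a median of 0.17 over the 10 genes, against a median of -0.10 over all 13436 measured genes. By the rule of a 2-fold difference, 0 of the 10 genes were higher and 1, ubl-5, was lower. The same rule took 10.5% of all measured genes as higher and 11.3% as lower, so that the count for the response genes lay near the background. Of the 10 genes, 4 lay between the quartiles of all measured genes, -0.61 and 0.41.

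**Figure D1:**
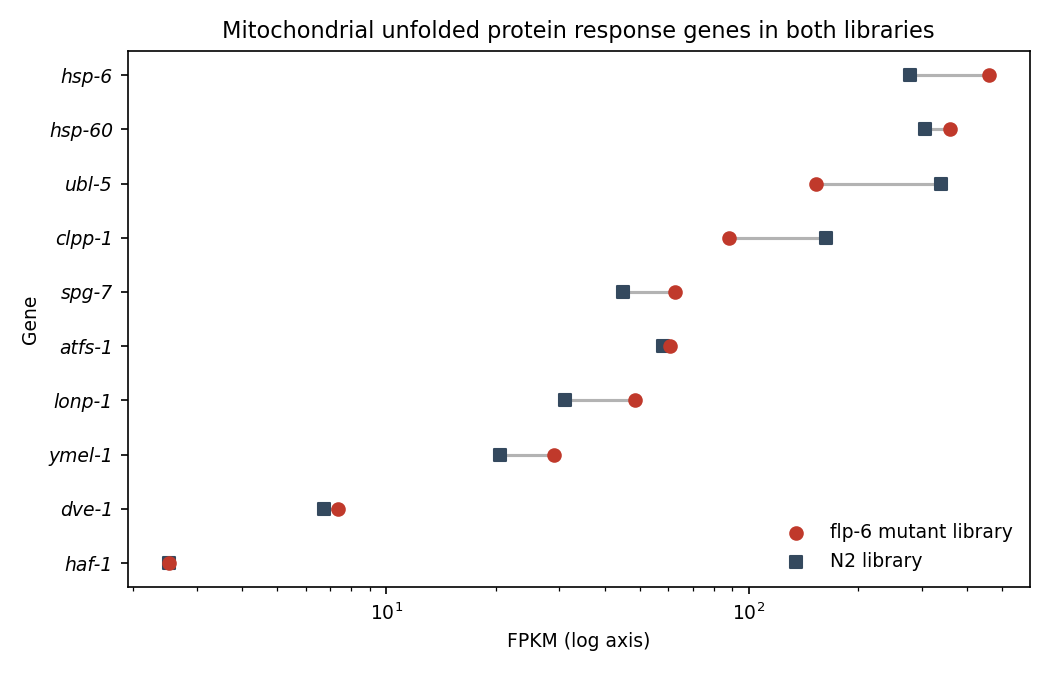
FPKM of each response gene (horizontal log axis) in the flp-6 mutant library (red circles) and the N2 library (dark squares), 1 library each, with genes ordered by their mutant value. The largest gaps are those of hsp-6, which was higher in the mutant library at 459.6 against 278 FPKM, and of ubl-5 and clpp-1, which were lower.

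The matrix chaperones were among the most abundant of these transcripts. The hsp-6 gene encodes the Hsp70 chaperone of the mitochondrial matrix, which pulls in and folds imported proteins. It had 459.6 FPKM in the mutant library and 278 FPKM in the N2 library, a ratio of 1.65 and a log2 difference of 0.72. This was the highest of the 10 differences, yet 15.8% of all measured genes had a higher one. The hsp-60 gene encodes the matrix chaperonin, a barrel in which proteins fold, and had 359 FPKM in the mutant and 307 FPKM in the N2 library. Its log2 difference was 0.23, and 32.7% of measured genes lay above it. The ratio of hsp-6 to hsp-60 within a library, which no rescaling of a whole library can change, was 1.28 in the mutant and 0.908 in N2. The reporter genes of the response were thus both higher as deposited, and to unequal degrees.

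The partner of hsp-60 went the other way. Y22D7AL.10 encodes the co-chaperonin of the Hsp10 family that caps the Hsp60 barrel. It is the neighbour of hsp-60 on chromosome III, where it lies on the reverse strand from 1617151 to 1618929 and hsp-60 on the forward strand from 1619742 to 1625803 (WBcel235), with 812 bases between them. It had 516 FPKM in the mutant and 731 FPKM in the N2 library, a log2 difference of -0.50. The level of hsp-60 was 0.696 of that of Y22D7AL.10 in the mutant library and 0.420 in N2. The transcript of Y22D7AL.10 is short, at 558 nt, and after its difference was set against genes of like length it stood at 0.05.

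Relatives of the chaperones in other compartments gave a mixed picture. Among the Hsp70 genes, hsp-1 of the cytosol had 2060 FPKM in the mutant and 1968 FPKM in the N2 library, and hsp-4 of the endoplasmic reticulum had 209 and 191 FPKM. The other Hsp70 of the endoplasmic reticulum, hsp-3, had 493 FPKM in the mutant and 293 FPKM in the N2 library, and its log2 difference of 0.75 was close to the 0.72 of hsp-6. Of 10 measured genes of the Hsp70 list, 8 were higher and 2 lower by any amount, 0 were past 2-fold, and the median was 0.39. After centring by length the median was 0.11, with 5 above and 4 below 0. With the libraries set to the same sum 10 of 10 were higher and 4 were past 2-fold. On that scale 20.5% of all measured genes were at least 2-fold higher, and the median of all was 0.34. The heat-induced genes F44E5.4 and F44E5.5 of that list were under the filter. The list also took in hsp-75, listed as R151.7, a mitochondrial chaperone of the Hsp90 family, at 99.5 against 100.2 FPKM. The cytosolic chaperonin, whose subunits are relatives of hsp-60, had 4 of 8 subunit genes higher and 4 lower, with a median of -0.08. With the libraries set to the same sum, that median was 0.43, beside 0.34 over all measured genes, and 8 of 8 subunits were higher.

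**Figure D2:**
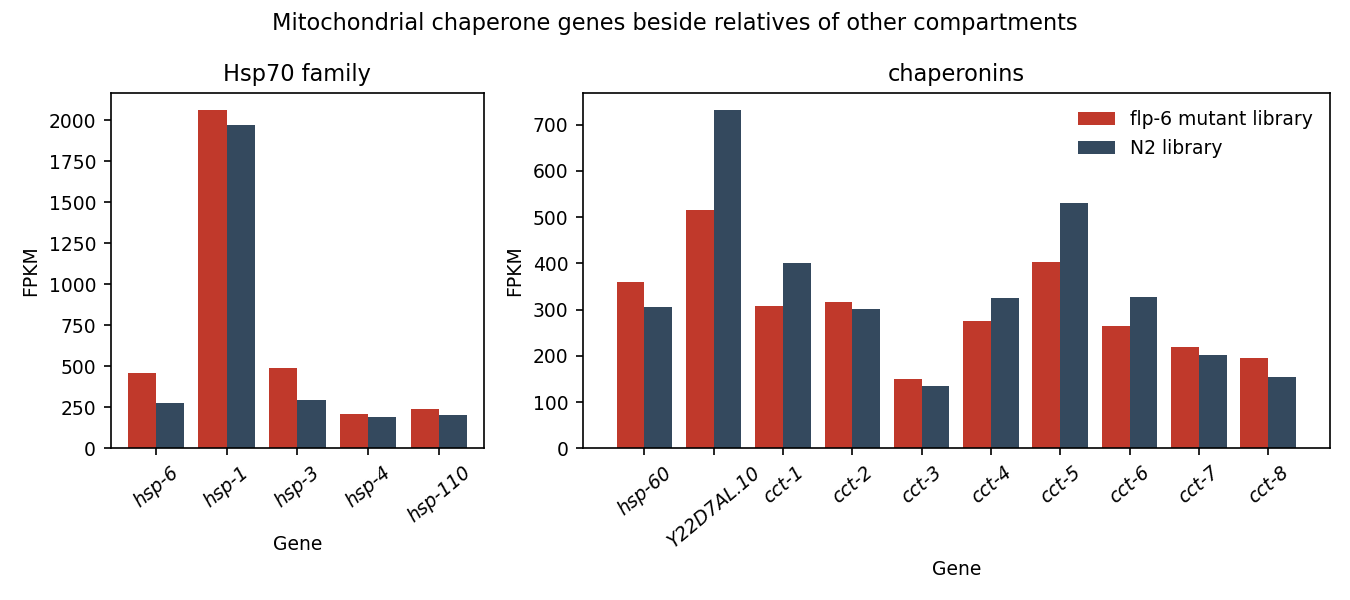
FPKM (vertical axes from 0) in the flp-6 mutant library (red bars) and the N2 library (dark bars), 1 library each, for Hsp70 genes on the left and chaperonin genes on the right. The mitochondrial hsp-6 and hsp-3 of the endoplasmic reticulum have like levels and like differences, whereas hsp-60 is higher and Y22D7AL.10 lower in the mutant library.

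Of the nuclear regulators, atfs-1 and dve-1 differed little. The atfs-1 gene, which encodes the basic leucine zipper factor at the centre of the response, had 60.6 FPKM in the mutant and 58.0 FPKM in the N2 library, a log2 difference of 0.06. The dve-1 gene, which encodes a homeodomain protein that binds chaperone gene promoters, had 7.34 FPKM in the mutant and 6.71 FPKM in N2, a log2 difference of 0.11. It was thus the least abundant of the regulators. The table gives 1 value per gene, so that the 7 annotated transcripts of atfs-1 and the 10 of dve-1 could not be told apart. The within-library ratio of hsp-6 to atfs-1 was 7.58 in the mutant and 4.80 in N2.

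The regulator ubl-5 had the lowest difference of the 10 genes. It encodes a small ubiquitin-like protein that acts with DVE-1 in the nucleus. It had 154 FPKM in the mutant library and 339 FPKM in the N2 library. The mutant value was 45.4% of that of N2, a log2 difference of -1.14. Of all measured genes 7.86% had a lower one. In the N2 library ubl-5 was the most abundant of the 10 transcripts, and in the mutant library it was the third after hsp-6 and hsp-60. The ratio of ubl-5 to dve-1, whose longest transcript has 2414 nt, was 20.96 in the mutant and 50.5 in N2. The only annotated transcript of ubl-5 has 327 nt in 2 exons and is the shortest of the 10.

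The matrix proteases lay on opposite sides. The lonp-1 gene encodes the Lon protease, which degrades misfolded matrix proteins and also ATFS-1. It had 48.5 FPKM in the mutant and 31.1 FPKM in the N2 library, a log2 difference of 0.62, the second highest of the 10. The clpp-1 gene encodes the proteolytic subunit of the ClpXP protease, which cuts matrix proteins into peptides. It had 88.3 FPKM in the mutant and 163 FPKM in the N2 library, a log2 difference of -0.88, just short of 2-fold. The ratio of lonp-1 to clpp-1 was 0.549 in the mutant and 0.191 in N2. Their longest transcripts are far apart in length, at 3059 and 789 nt, and length is taken up below. The paralog lonp-2, listed as Y75B8A.4, encodes the Lon protease of peroxisomes and had 6.90 FPKM in the mutant and 7.56 FPKM in N2.

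The span of clpp-1 on chromosome II, from 10300714 to 10302842, holds part of mdt-22, a Mediator subunit gene on the other strand. The spans share 673 bases, and the annotated exons of the pair share 0 bases. The value of mdt-22 was also lower in the mutant library, at 92.4 against 261 FPKM. The library kit named in the labels does not mark strand, and reads of unspliced transcripts in the shared stretch could not be assigned, so that the part of mdt-22 in the value of clpp-1 was not tested.

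The proteases of the inner membrane differed alike. These are ring-shaped AAA proteases that remove damaged membrane proteins, spg-7 facing the matrix and ymel-1 facing the intermembrane space. The spg-7 gene had 62.6 FPKM in the mutant and 45.1 FPKM in the N2 library, a log2 difference of 0.47. The ymel-1 gene had 29.0 FPKM in the mutant and 20.5 FPKM in N2, a log2 difference of 0.48. Their ratio was nearly the same in each library, at 2.15 in the mutant and 2.19 in N2. A further matrix-facing AAA protease gene, ppgn-1, had 16.4 against 12.9 FPKM, a log2 difference of 0.33. The span of spg-7 on chromosome I overlaps 3 genes of the other strand and shares 0 exon bases with them. They are Y47G6A.15 at 10.4 against 9.75 FPKM, Y47G6A.14 at 22.9 against 30.1 FPKM, and the noncoding Y47G6A.36 at 73.6 against 61.3 FPKM. The library kit does not mark strand, and the part of these genes in the value of spg-7 was not tested.

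The peptide transporter haf-1 was level and scarce. It encodes an ABC transporter of the inner membrane that exports peptides from the matrix. It had 2.50 FPKM in the mutant and 2.51 FPKM in the N2 library, a log2 difference of -0.003, and was the least abundant of the 10 transcripts in each library. Its exons share 64 bases with those of C30H6.9 on the other strand, at 33.3 against 66.1 FPKM, and reads from those bases could not be assigned to a strand. Of 7 measured genes of the haf family, 3 were higher and 4 lower by any amount, and 0 were past 2-fold. With the libraries set to the same sum 7 of 7 were higher, with a median of 0.43 beside 0.34 over all measured genes. The highest difference was that of haf-9, at 57.1 FPKM in the mutant and 30.1 FPKM in N2.

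Set in order of level, the mutant library ran hsp-6, hsp-60, ubl-5, clpp-1, spg-7, atfs-1, lonp-1, ymel-1, dve-1 and haf-1. The N2 library ran ubl-5, hsp-60, hsp-6, clpp-1, atfs-1, spg-7, lonp-1, ymel-1, dve-1 and haf-1. With 1 library each, which neighbours in these orders differ beyond their spread cannot be judged. The 10 genes summed to 1272 FPKM in the mutant and 1251 FPKM in the N2 library, which was 0.129% and 0.0885% of the FPKM sum of each library. The chaperone pair made up 819 FPKM of this in the mutant and 585 FPKM in N2, and the 3 nuclear regulators 222 and 404 FPKM, of which ubl-5 made up 154 and 339 FPKM. With 2 libraries a gene's pattern is a single ratio, so no genes were named for a like pattern.

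The direction of the 10 genes went with transcript length. The pair under 1000 nt, ubl-5 and clpp-1 at 789 nt, were the lowest, and the 8 over 1900 nt lay between the -0.003 of haf-1 and the 0.72 of hsp-6. The longest, lonp-1 at 3059 nt, had the second highest difference. Among protein-coding genes of up to 600 nt the median difference was -0.50, and among those of 2500 to 3500 nt it was 0.30. Each of the 10 was therefore set beside the 325 genes of its own length bin. There, hsp-6 and lonp-1 lay above the upper quartile of their bins, ubl-5 and clpp-1 lay below the lower quartile, and the other 6 lay between the quartiles. For hsp-6, at 2460 nt, the bin had a median of 0.18 and an upper quartile of 0.46. For ubl-5 the bin had a median of -0.33 and a lower quartile of -0.99. For clpp-1 the lower quartile was -0.87, just above its own -0.88.

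**Figure D3:**
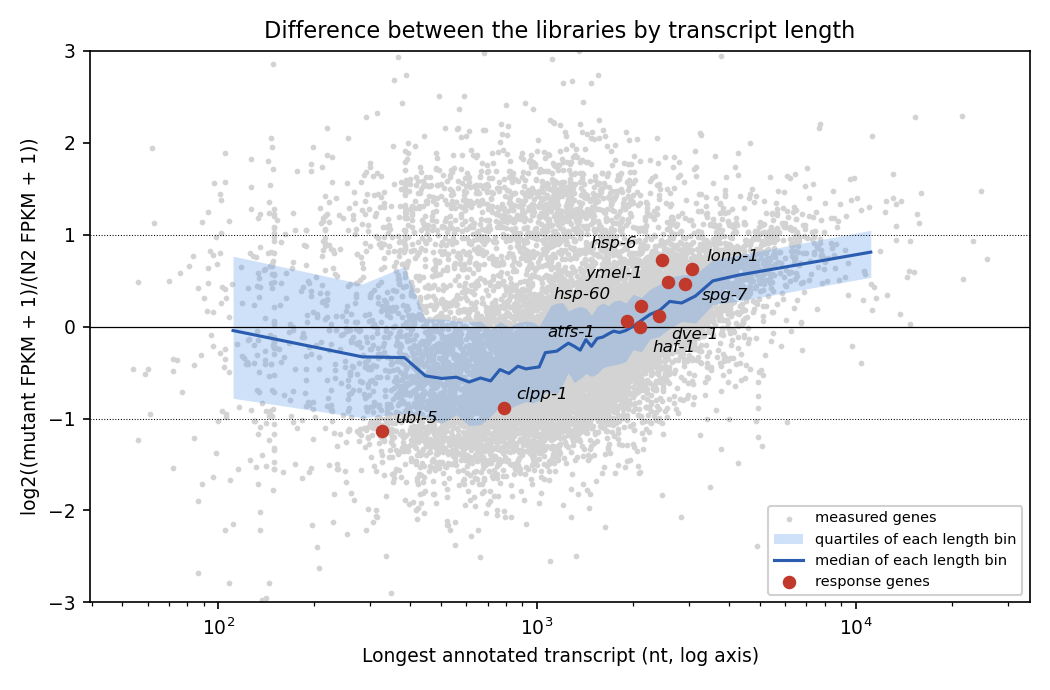
Log2 difference of mutant over N2 FPKM (vertical axis) against the longest annotated transcript (horizontal log axis) for measured genes (grey), with the median and quartiles of 40 length bins (blue) and the 10 response genes (red). The red points follow the blue line, with hsp-6 and lonp-1 above the band, ubl-5 below it and clpp-1 at its lower edge. Outside the plotted range of -3 to 3 lie 25 measured genes.

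Centring by length brought hsp-6 to 0.55, hsp-60 to 0.16, lonp-1 to 0.29, spg-7 and ymel-1 to 0.21 each and atfs-1 to 0.11. It brought dve-1 to -0.06, haf-1 to -0.07, clpp-1 to -0.41 and ubl-5 to -0.81. On this scale 0 of the 10 were past 2-fold either way, against 10.9% of genes higher and 3.16% lower, and the median was 0.13. Changes of pseudocount, filter, fold or genes kept cannot turn the sign of a difference, whereas those of scale or centring can. Under the deposited values and the 13 alternatives, 8 of the 10 genes kept the sign of their difference. The exceptions were dve-1, which turned only under length centring, and haf-1, which stood at 0.37 with the libraries rescaled to the same sum. That rescaling moved the median of all measured genes by 0.44 on the log2 scale and put hsp-6 at 1.24 and lonp-1 at 1.12, past 2-fold, with ubl-5 at -0.62. On that scale 20.5% of all measured genes were at least 2-fold higher and 3.1% lower, so that 2 of 10 lay at the background. Relative to the median of all measured genes on that scale, 0.34, hsp-6 stood 0.89 higher.

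**Figure D4:**
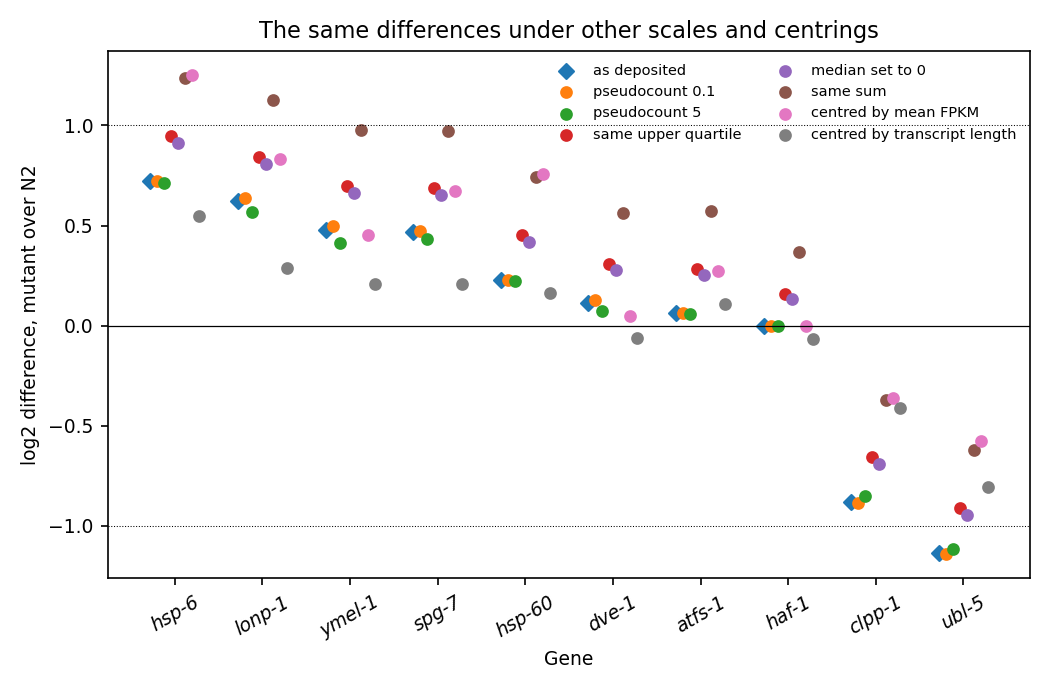
Log2 difference of mutant over N2 (vertical axis, dotted lines at 2-fold) for each response gene under the deposited values (blue diamonds) and 7 other scales, pseudocounts or centrings (circles). Genes from hsp-6 to hsp-60, and atfs-1, stay above 0 and clpp-1 and ubl-5 below it under those shown, while dve-1 and haf-1 lie on both sides.

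In the authors' deposited table, 0 of the 10 genes had a q-value under 0.05. Among them the authors' deposited table gave ubl-5 the lowest p-value, 0.143, beside a q-value of 0.951. For hsp-6 the authors' deposited table listed a p-value of 0.252, with 0.957 as its q-value. The lowest q-value of any gene in the authors' deposited table was 0.112. These values compare 1 library with the other and not the genotypes.

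The genes that act on the response from outside, in chromatin or signalling, had a positive median, and they are long. Of 14 measured, 9 were higher and 5 lower by any amount, and 2 were past 2-fold, 1 in each direction. Of all measured genes 10.5% were at least 2-fold higher and 11.3% lower. The median of the list was 0.43, or 0.06 after centring by length. After that centring 7 lay above and 7 below 0, and 1 was past 2-fold, on the lower side. With the libraries set to the same sum 11 were higher and 3 lower, and 6 were past 2-fold, all higher. On that scale 20.5% of all measured genes were at least 2-fold higher. The acetyltransferase gene cbp-1 had 20.9 FPKM in the mutant and 7.31 FPKM in N2, and the histone demethylase gene jmjd-1.2 had 26.8 and 13.02 FPKM. The histone methyltransferase gene met-2, which acts upstream of DVE-1, had 37.5 FPKM in the mutant and 23.1 FPKM in N2. On the lower side, the small GTPase gene rheb-1 had 74.9 FPKM in the mutant and 158 FPKM in N2, and zip-3, a leucine zipper factor that restrains ATFS-1, had 27.6 and 44.1 FPKM. Release of neuropeptides from dense-core vesicles needs unc-31, which was close to the filter at 1.06 against 1.90 FPKM.

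Genes of mitochondrial protein import, whose failure sends ATFS-1 to the nucleus, were lower in the mutant. Of 15 measured, 9 lay past 2-fold on the lower side and 0 on the higher side. Of all measured genes, 11.3% and 10.5% did. The median of the list was -1.05, and 14 of 15 lay below 0. The outer membrane receptor gene tomm-22 had 50.4 FPKM in the mutant and 126 FPKM in N2, and tin-13, whose product escorts proteins between the membranes, had 134 and 345 FPKM. The inner membrane channel gene timm-23 differed less, at 92.5 against 113 FPKM. These transcripts are short, with a median of 483 nt. After centring by length the median was -0.61, 12 of 15 lay below 0 and 0 were past 2-fold. With the same sum the median was -0.54, 10 of 15 lay below 0 and 0 were past 2-fold.

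The next list held genes of respiration, import and assembly, for many of which loss is known to switch the response on. Of 16 measured, 4 lay past 2-fold on the lower side and 0 on the higher side. Of all measured genes, 11.3% and 10.5% did. The median of the list was -0.37, or -0.09 after centring by length and 0.15 with the same sum. The frataxin gene frh-1 had 18.96 FPKM in the mutant and 55.5 FPKM in N2, and the cytochrome oxidase gene cco-1 had 587 and 1240 FPKM. The ubiquinone synthesis gene clk-1 had 55.8 FPKM in the mutant and 117 FPKM in N2. The complex I gene gas-1 was higher, at 199.8 against 156 FPKM. The member spg-7 belongs to this list too.

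Chaperone and protease lists that hold the members were close to 0. Of 11 mitochondrial chaperones and co-chaperones, 2 lay past 2-fold, both lower, and the median was -0.08. Of all measured genes 11.3% were at least 2-fold lower. The 2 in this list were dnj-21, a J protein of the import motor, at 27.8 against 62.9 FPKM, and bcs-1, an assembly factor of complex III, at 47.3 against 100.2 FPKM. The matrix J protein gene dnj-10, the partner of hsp-6, was level at 29.8 against 29.1 FPKM. In this species trap-1 names a protein of the endoplasmic reticulum, and without it the median of the other 10 was -0.10. Of 9 genes in the mitochondrial protease list 0 were past 2-fold, with a median of -0.10. The 3 long member genes lonp-1, ymel-1 and spg-7 were the highest. That list took in ucr-1, which is also in the list of the respiratory chain, and the median was the value of ucr-1 itself. With the libraries set to the same sum, the medians of the chaperone and protease lists were 0.44 and 0.41, beside 0.34 over all measured genes.

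**Figure D5:**
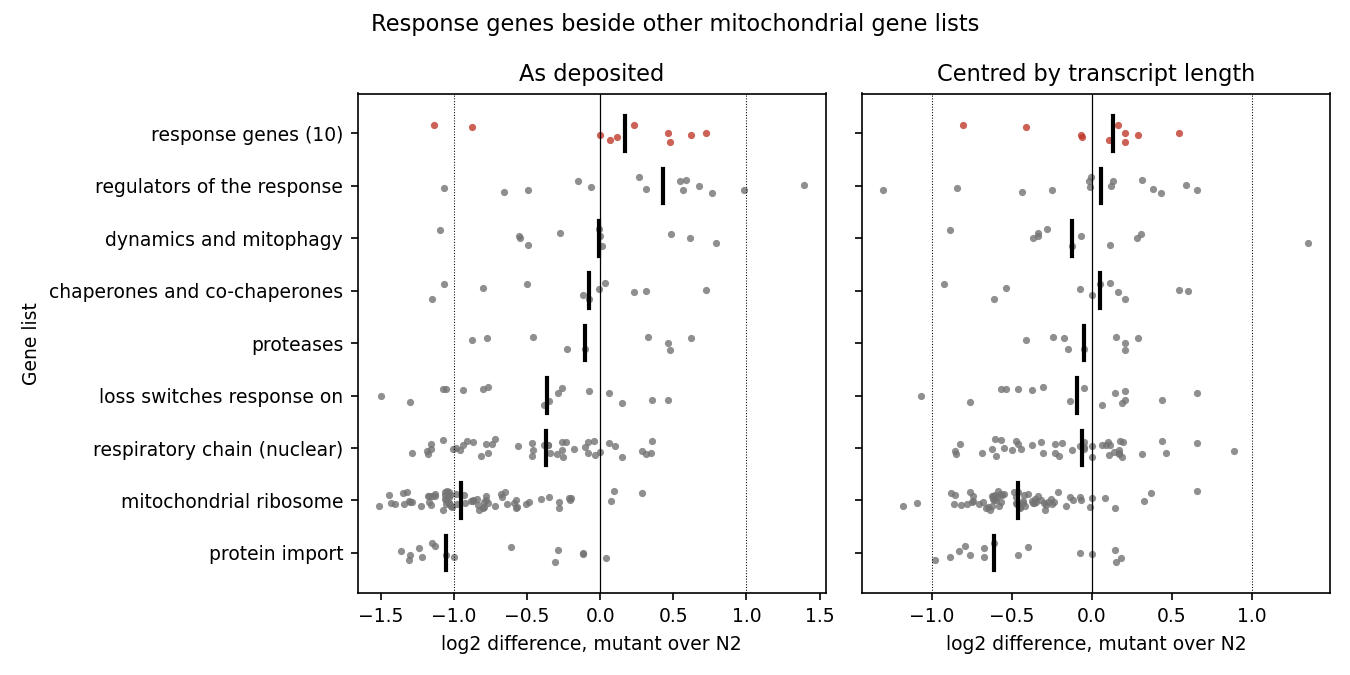
Log2 difference of mutant over N2 (horizontal axis, dotted lines at 2-fold) for the 10 response genes (red) and 8 lists of mitochondrial or regulatory genes (grey). Values are as deposited on the left and centred by transcript length on the right, with a black bar at each median. Response genes are also drawn in grey in the rows of chaperones, proteases and genes whose loss switches the response on. The response genes have a median of 0.17 on the left and 0.13 on the right, and those of protein import have -1.05 and -0.61.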

How the data were processed

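RNA of whole L4 larvae was sequenced as 1 flp-6 mutant and 1 N2 library, made with TruSeq version 2 kits per the labels' protocols. The submitters' processing notes name TopHat, Cufflinks and WBcel235 without versions or settings. FPKM values were deposited as 1 column per library, per the file headers. The authors' deposited ratio and log2 ratio are mutant over N2 with no pseudocount, and their deposited p-value and q-value compare 1 library with the other. Depth is unknown: within 0.1 of a whole-read step lay 22.5% of low mutant values and 22.7% of low N2 values, where chance gives 20%, so neither read counts nor counting intervals are given.

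The difference is log2((mutant FPKM + 1)/(N2 FPKM + 1)), and it understates changes at low values. A mean of at least 1 FPKM was required, and the table lists 0.0001 for 0. No test was made. Positions and the longest transcript come from Ensembl release 115 (WBcel235). The deposited locus reached 4861 bases beyond the release 115 span for spg-7 and 861 bases for haf-1. Whether the same gene models gave the deposited values was not tested. Length centring subtracts the median of the gene's length bin (40 equal-sized bins, 12999 genes above 0.0001 in each library), which also takes out any real change that goes with length. The members and the 13 gene lists were chosen with earlier results of these data known. The text names all members, flp-6, paralogs of members and at most 4 genes of each list by size of difference. Chosen after their values were seen were zip-3, met-2, unc-31, timm-23, gas-1, dnj-10, atp-2, fzo-1, mdt-22, Y47G6A.15 and C30H6.9. Alternatives changed the pseudocount (0.1 or 5), the filter (none, or 5 FPKM), the fold (1.5 or 4), the scale (same sum, upper quartile or median), the centring (length or mean FPKM) and the genes kept (none at 0.0001, or coding genes alone). The calculation was tested on simulated data with planted 4-fold changes. These are larger than the difference of any response gene, so the test does not cover differences of that size. Software was Python 3.11.15 with numpy 2.4.6, pandas 2.3.3, scipy 1.17.1, and for plots matplotlib 3.10.9.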

Additional observations from a re-analysis of the deposited data

How the results depend on the processing

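The count of response genes past 2-fold on the higher side, 0 as deposited, was 2 with a 1.5-fold threshold, 2 with the libraries set to the same sum and 1 after centring by mean FPKM, where 19.4%, 20.5% and 10.4% of all genes were called higher. The count past 2-fold on the lower side, 1 as deposited, was 2 with a 1.5-fold threshold, where 26.3% of all genes were called lower. It was 0 with a 4-fold threshold, with the same sum, with the same upper quartile, with the median set to 0, and after centring by length or by mean FPKM, where 1.19%, 3.1%, 6.31%, 6.89%, 3.16% and 5.77% were. The median over the 10 genes lay between 0.13 and 0.66 on the log2 scale over the 13 alternatives, and no median of a list moved by more than 1.5-fold. The share of higher genes among all 2-fold calls was 48.0% as deposited, 86.8% with the same sum, 68.7% with the same upper quartile, 65.7% with the median set to 0 and 77.5% after centring by length. Without the 3 members that overlap another gene, an alternative chosen after seeing the data, the median was 0.23. No paired analysis was possible because each group holds 1 library, and for the same reason no library could be left out. FPKM without depth gives no counting error, so the precision of low values such as those of haf-1, dve-1, unc-31 and fis-1 is unknown.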

Other observations

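As deposited, most nuclear genes of the respiratory chain and of the mitochondrial ribosome were lower in the mutant, 37 of 44 and 67 of 70 by any amount. Of 44 nuclear genes of the respiratory chain, 7 lay past 2-fold on the lower side and 0 on the higher side. The median was -0.37, or -0.06 after centring by length and 0.14 with the libraries set to the same sum. The complex I gene lpd-5 had 116 FPKM in the mutant and 285 FPKM in N2, and the ATP synthase gene atp-2 had 1656 and 1493 FPKM. Of 70 mitochondrial ribosomal protein genes, 33 lay past 2-fold on the lower side and 0 on the higher side. As deposited, 11.3% of all measured genes lay past 2-fold on the lower side. The median of the list was -0.95, or -0.46 after centring by length, when 2 were past 2-fold, both lower. With the libraries set to the same sum it was -0.45, and 1 was past 2-fold, on the lower side. The gene mrpl-36 had 87.8 FPKM in the mutant and 252 FPKM in N2. The mitochondrially encoded cytochrome b gene ctb-1 had 2620 FPKM in the mutant and 6426 FPKM in N2. The other 11 genes of that list were not matched by symbol and so were not analysed here.

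Genes of mitochondrial dynamics and mitophagy went both ways. Of 11 measured, 4 were higher and 7 lower by any amount, or 8 and 3 with the libraries set to the same sum. On that scale the median of the list was 0.49, beside 0.34 over all measured genes. As deposited, 11.3% of all measured genes were at least 2-fold lower. In this list 1 was, the autophagy gene bec-1, at 38.6 FPKM in the mutant against 83.9 FPKM in N2. The inner membrane fusion gene eat-3 had 65.8 FPKM in the mutant and 42.6 FPKM in N2, the fission gene fis-1 had 4.48 and 2.17 FPKM, and the outer membrane fusion gene fzo-1 was level at 48.2 and 48.4 FPKM.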
